A study of Mus musculus with 13 samples.

Results

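The main islet hormones are the secreted peptides by which the endocrine cells of the pancreas are told apart, and their transcripts were followed here from embryonic stem cells through islet progenitors to adult islets. The genes were Ins2, Iapp, Gcg, Sst and Ppy, 5 of the 16593 genes named on the array, chosen by name with earlier results of these data known. Each was measured by 1 probe, so no second probe checks any of them. The study put RNA from 13 samples, all recorded as mouse strain C57BL/6, on single-colour bead arrays. The negative control was the embryonic stem cell line W9.5 (n = 2), the positive control was adult islets (n = 2), and between them stood purified pancreatic islet progenitors, 4 samples taken at day 0, 3 at day 1 and 2 at day 4 of their differentiation. The labels name no treatment, genotype or donor age, do not say how many animals a sample pooled, and do not say whether replicates were separate animals or cultures. The p-values therefore speak of the spread among these arrays alone, and that spread may be technical.

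Ins2 encodes one of the mouse insulins, the hormone of beta cells, and Iapp encodes amylin, a peptide stored and released with insulin. Gcg encodes proglucagon, which alpha cells cut into glucagon. Sst encodes somatostatin of delta cells, which restrains the release of both insulin and glucagon, and Ppy encodes pancreatic polypeptide, a member of the neuropeptide Y family made by PP cells. In development all of these cells descend from progenitors that pass through a burst of the transcription factor Neurog3.

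The sequence before the start site is shown for the hormone genes present in the promoter table, because all of them went from background in stem cells to high levels in every pancreatic group. RefSeq (GRCm38.p6) gave it for 4 of the 5 genes, here as the 250 bases upstream of the start site that the promoter table uses, 5′ to 3′. For Sst that site lies inside the annotated span of the gene, so the window does too, while the windows of Iapp, Gcg and Ppy adjoin the annotated ends. Capitals mark TAAT, the core bound by many homeodomain factors, TATAAA, the TATA box, and TGACGTCA, the cyclic AMP response element, on either strand.
Iapp (chr6:142298175-142298424, plus strand): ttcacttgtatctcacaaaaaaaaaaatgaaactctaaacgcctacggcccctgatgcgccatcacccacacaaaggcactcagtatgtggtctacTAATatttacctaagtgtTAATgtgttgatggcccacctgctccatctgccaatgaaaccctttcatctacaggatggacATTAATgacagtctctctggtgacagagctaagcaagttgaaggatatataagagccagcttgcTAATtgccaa
Gcg (chr2:62483654-62483903, minus strand): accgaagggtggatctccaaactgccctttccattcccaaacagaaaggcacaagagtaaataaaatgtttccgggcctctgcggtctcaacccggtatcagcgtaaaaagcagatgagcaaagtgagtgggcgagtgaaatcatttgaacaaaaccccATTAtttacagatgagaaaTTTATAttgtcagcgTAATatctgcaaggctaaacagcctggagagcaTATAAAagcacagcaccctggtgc
Sst (chr16:23890845-23891094, minus strand): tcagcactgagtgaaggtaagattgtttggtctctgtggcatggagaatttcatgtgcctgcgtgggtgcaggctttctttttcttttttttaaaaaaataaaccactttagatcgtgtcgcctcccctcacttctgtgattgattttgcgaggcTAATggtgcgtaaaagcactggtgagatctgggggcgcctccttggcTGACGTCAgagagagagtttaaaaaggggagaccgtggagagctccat
Ppy (chr11:102101320-102101569, minus strand): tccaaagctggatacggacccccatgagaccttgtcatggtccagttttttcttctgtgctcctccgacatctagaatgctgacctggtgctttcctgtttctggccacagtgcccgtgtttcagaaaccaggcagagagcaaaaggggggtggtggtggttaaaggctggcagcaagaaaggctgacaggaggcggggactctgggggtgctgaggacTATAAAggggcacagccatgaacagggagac

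TAAT occurred 5 times before Iapp (1 pair of copies on opposite strands overlapping at -74 to -69), 2 times before Gcg, 1 time before Sst and 0 times before Ppy. TATAAA stood at -24 to -19 before Gcg, which held another copy on the opposite strand, and at -31 to -26 before Ppy. The cyclic AMP response element occurred before Sst alone of the 4, at -48 to -41. No base belonged to 2 of the different motifs. Of 32851 upstream windows of this length, 54.9% held TAAT, 12.4% TATAAA and 1.55% TGACGTCA, which makes TAAT common. A match is a description of the letters and not of a bound site.

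Pluripotency and endocrine markers followed the sample labels, with exceptions among progenitor and other cell type markers that touch the hormones. The pluripotency factors Pou5f1 and Nanog averaged 11.76 ± 0.54 and 11.60 ± 0.49 (mean ± SD of log2 intensity, n = 2) in stem cells and were at or below 7.27 in every pancreatic group mean. The mean over 7 endocrine markers lay between 10.88 and 11.57 on the 11 pancreatic arrays, and at most 7.10 in stem cells. That of 4 endocrine progenitor markers was 11.07 to 11.63 at day 0, 8.59 to 9.71 at day 1 and 7.91 to 7.98 at day 4. It was 7.26 to 7.45 in adult islets and 7.27 to 7.66 in stem cells. At day 4, 0 of these 4 were called higher than in stem cells, where 20.6% of all genes were. Transcripts of other pancreatic cell types were present: the mean of 10 acinar markers was 9.05 to 11.15 on the arrays of days 0 to 4 and 12.996 to 13.29 in adult islets. The mean of 5 endothelial markers was 7.24 to 8.22 at day 0, 7.15 to 7.39 at day 1, 7.25 to 7.29 at day 4 and 9.53 to 9.67 in adult islets. That of 6 immune markers was 7.80 to 8.37, 7.14 to 7.64, 7.26 to 7.33 and 9.16 to 10.19 in the same groups. The means of 2 erythroid markers were 10.96 to 12.30 at day 0, 9.09 to 11.97 at day 1 and at most 7.24 at day 4. Thus immune and erythroid means at day 4 lay below those of every day 0 array, across the comparison in which Sst and Ppy rose. Within the immune list C1qa went the other way, from a group mean of 7.73 at day 0 to 8.33 at day 4. The mean of 3 proliferation markers was higher at day 4 (9.10 to 9.13) than at day 0 (7.75 to 8.85). Whether other cells, carried-over RNA or the progenitors themselves gave these transcripts, and their part in the hormone values, was not tested, and in bulk RNA fewer cells of a type and less RNA per cell cannot be told apart.

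The brightest probe of an array is called its ceiling here, and several of the hormone probes lay near it. It was not the same on all arrays. The brightest probe of an array lay between 14.34 and 15.197, and between 33 and 103 of the 25697 probes were within 1 log2 unit of it on the pancreatic arrays. Whether signals this close to the top are compressed was not tested. If they are, differences between groups come out too small there. A probe at 7.24 or less was taken as not above background.

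**Figure D1:**
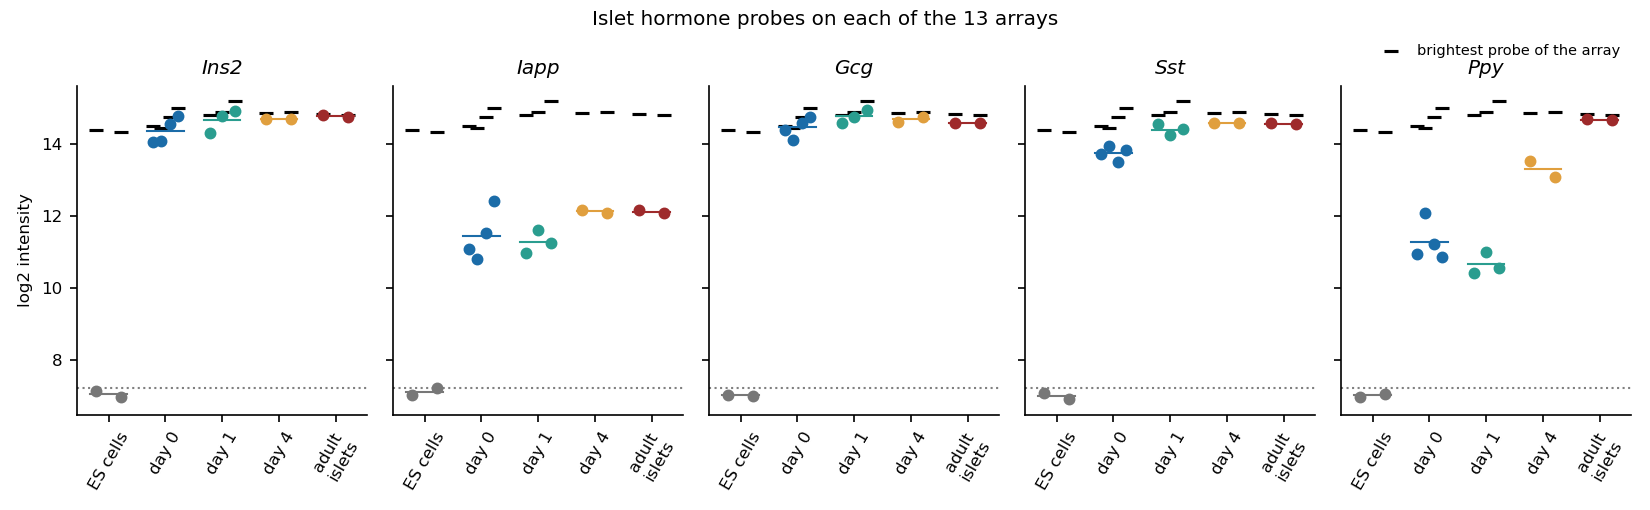
Log2 intensity (vertical axis) of the probe of each hormone gene on the 13 arrays, by group; points are arrays, coloured lines group means, black dashes the brightest probe of the same array and the dotted line the background level of 7.24. Ins2 and Gcg sit under the dashes in every pancreatic group, Sst from day 1, Ppy in adult islets alone, and Iapp in none.

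All 5 hormone transcripts were at background in embryonic stem cells and well above it on every pancreatic array. The stem cell arrays read 7.16 and 6.98 for Ins2, 7.04 and 7.22 for Iapp, 7.05 and 7.001 for Gcg, 7.09 and 6.92 for Sst and 6.997 and 7.08 for Ppy, none above background. Day 0 progenitors were at least 140-fold higher for Ins2, 149-fold for Gcg and 90.4-fold for Sst, counted from the background level. For Iapp and Ppy, further from the top, they were at least 18.6-fold and 16.4-fold higher. All 5 passed in limma's moderated test at an adjusted p (Benjamini-Hochberg over 14946 probes) between 7.54e-11 and 3.12e-06, where 23.6% of all probes were called higher at day 0 than in stem cells. All 5 were also called higher in day 1 progenitors (21.6% of all probes), day 4 progenitors (18.7%) and adult islets (21.6%). None of these groups overlapped with stem cells for any of the 5, but the share of all probes without overlap was not counted. Adult islets were at least 185-fold above stem cells for Ins2, 173-fold for Ppy, 162-fold for Gcg, 159-fold for Sst and 29.3-fold for Iapp.

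Among the pancreatic groups Sst and Ppy changed, and Ins2, Iapp and Gcg did not pass the test. From day 0 to day 1 Sst was the 1 of 5 that rose, where 1.58% of all probes were called higher. Between day 0 and day 4 Sst and Ppy rose (2 of 5, against 5.13%), and between day 1 and day 4 Ppy alone passed (1 of 5, against 0.97%). Ppy was also the 1 of 5 called higher in adult islets than at day 4 (6.84% of all probes), and Sst and Ppy were higher in adult islets than at day 0 (15%). Against day 1, Ppy alone of the 5 was higher in adult islets (11.5%). In these 6 comparisons 0 of 5 hormones were called lower by limma, where 1.89%, 5.12%, 0.428%, 5.68%, 17.1% and 12.6% of all probes were. At an unadjusted p under 0.05 the number past the threshold in either direction was 2 of 5 in each of them but adult islets against day 4, with 1. At that threshold 16.1%, 26.4%, 14.9%, 24.7%, 42.7% and 36.5% of all probes passed, in the same order.

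Ins2 (probe ILMN_2690267) was near the ceiling from the start. Its log2 intensity was 14.06, 14.09, 14.55 and 14.77 on the day 0 arrays and 14.29, 14.76 and 14.91 on the day 1 arrays. The day 4 arrays gave 14.69 and 14.68, and those of adult islets 14.80 and 14.74. The ranges of day 0 and day 1 overlapped, and the adult arrays lay just above those of day 4 but inside the range of day 1. The adult arrays were 0.04 and 0.07 log2 units under the brightest probe, which made Ins2 the third brightest of all probes on both. Progenitor arrays were 0.13 to 0.52 under it, at ranks 4 to 42. The group means rose in the order day 0, day 1, day 4 and adult islets, but no neighbours differed beyond the spread (limma adjusted p 0.53 to 0.97). Adult islets minus day 0 was 0.40 on the log2 scale with a 95% interval of -0.07 to 0.88 (adjusted p = 0.181). On the 2 day 0 arrays with the higher Ins2 the brightest probe was higher too, 14.74 and 14.98 against 14.50 and 14.44 on the others. Whether the Ins2 probe also binds the transcript of the other mouse insulin gene was not tested.

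Iapp (probe ILMN_2996479) stayed 2.57 to 3.96 log2 units below the brightest probe on all 11 pancreatic arrays, clear of the ceiling. It read 11.07, 10.82, 11.52 and 12.41 on the day 0 arrays, 10.97, 11.62 and 11.24 on those of day 1. The later arrays gave 12.17 and 12.08 for day 4 and 12.15 and 12.07 for adult islets. The arrays of day 4 and of adult islets lay above all those of day 1 and within 0.11 of each other, while day 0 replicate 4 was higher than any of them. With that array the day 4 progenitors did not differ from day 0 (0.67 ± 0.35 log2 ± SE, adjusted p = 0.254), and without it the difference was 0.99 and passed (adjusted p = 0.0231, range over the alternatives 0.0231 to 0.599). The same array decided adult islets against day 0, 0.66 ± 0.35 (adjusted p = 0.179) with it and 0.98 (adjusted p = 0.00813) without it. Adult islets minus day 4 was -0.01, with a 95% interval of -0.91 to 0.88. Its spread within groups (SD 0.46) was larger than that of 94.5% of the probes tested, whose median was 0.19. The order of the group means was day 1, day 0, adult islets and day 4, and no neighbours among them were called different.

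Gcg (probe ILMN_1247347) was also close to the ceiling. The day 0 arrays read 14.40, 14.09, 14.58 and 14.75, those of day 1 14.59, 14.75 and 14.94, those of day 4 14.61 and 14.75 and those of adult islets 14.57 and 14.59. All 11 pancreatic values lay within 0.11 to 0.35 of the brightest probe, and Gcg ranked between 6 and 30 of 25697 probes. Adult islets were the narrowest group and sat just under every array of day 1 and day 4. The largest difference among these groups, day 1 minus day 0, was 0.30 ± 0.15 (adjusted p = 0.34), and adult islets minus day 4 was -0.10 with a 95% interval of -0.52 to 0.32. The sign of the latter turned after cyclic loess (0.16), and that of adult islets minus day 0 (0.12) turned after quantile normalization (-0.11). No order of the pancreatic groups could be read from this probe.

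Sst (probe ILMN_2729826) was higher at day 1 than at day 0, and later groups lay near day 1. It read 13.72, 13.93, 13.49 and 13.81 at day 0 and 14.54, 14.25 and 14.40 at day 1, so that every day 1 array was above every day 0 array. Both day 4 arrays gave 14.58, and adult islets 14.57 and 14.54. Day 1 exceeded day 0 by 0.66 ± 0.11 (1.58-fold, adjusted p = 0.0112), day 4 exceeded it by 0.84 ± 0.13 (1.79-fold, adjusted p = 0.00318), and adult islets by 0.82 ± 0.13 (adjusted p = 8.05e-04). From day 1 on the groups differed by less than the test resolved, with day 4 minus day 1 at 0.18 ± 0.14 and adult islets minus day 4 at -0.03 (95% interval -0.35 to 0.30). The probe had 0.51 to 1.25 log2 units of room under the brightest probe at day 0, but 0.28 to 0.29 at day 4 and 0.27 in adult islets.

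The Sst rise depended in part on what the arrays were anchored to. Measured from the mean of the 10 brightest probes of each array, day 1 minus day 0 was 0.40 (adjusted p = 0.24) and day 4 minus day 0 was 0.69 (adjusted p = 0.0716). Hormone probes were among those 10 on some arrays. Sst itself ranked 10 on day 1 replicate 1 and 9 and 10 on the day 4 arrays, so it was part of its own anchor on these. That anchor moved the median of all probes by -0.25 and -0.16, and relative to it Sst was 0.65 and 0.85 higher. The day 1 call was also lost after background subtraction (adjusted p = 0.0606, range over the alternatives 0.00138 to 0.24). The day 4 call was lost without day 4 replicate 1 (adjusted p = 0.0528) or replicate 2 (adjusted p = 0.0504, range over the alternatives 6.96e-05 to 0.0716), with differences of 0.84 in both cases. The excess of adult islets over day 0 passed in all 27 alternatives (adjusted p 5.92e-05 to 0.0428).

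**Figure D2:**
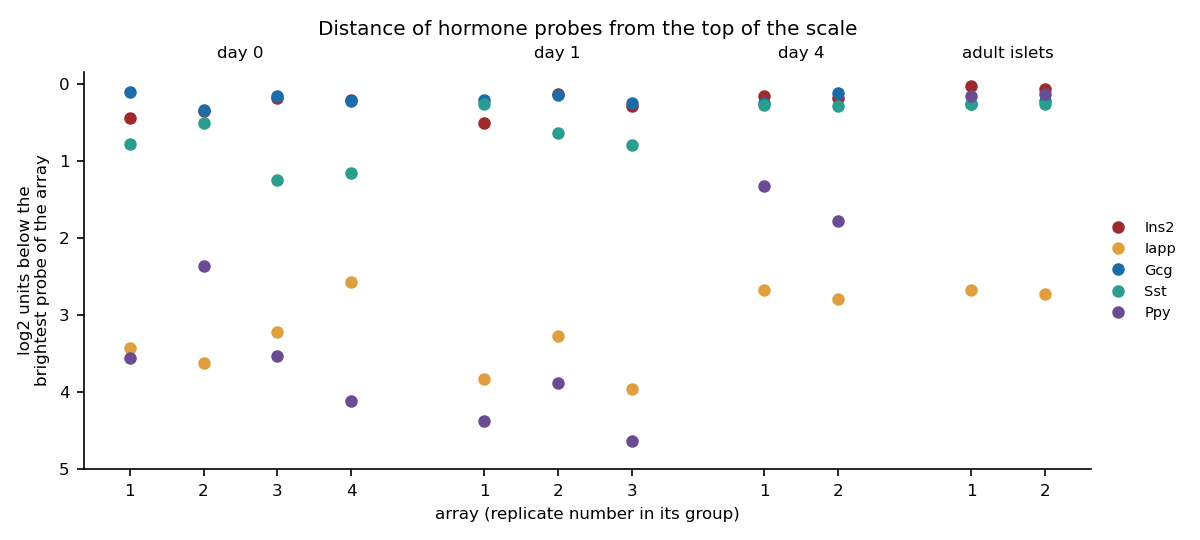
Distance of each hormone probe below the brightest probe of the same array, in log2 units (vertical axis, 0 at the top), on the 11 pancreatic arrays; the horizontal axis gives the replicate number within a group and colours mark the genes. Ins2 and Gcg lie within 0.52 of the top throughout, Sst reaches 0.26 to 0.80 at day 1, Ppy moves from 2.37 to 4.63 below the top at days 0 and 1 to at most 0.16 in adult islets, and Iapp stays at 2.57 or more.

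Ppy (probe ILMN_2856567) had the largest differences of the 5 between pancreatic groups. It read 10.94, 12.07, 11.21 and 10.87 on the day 0 arrays and 10.42, 11.01 and 10.57 on those of day 1, overlapping ranges of which day 0 replicate 2 was the highest. The day 4 arrays gave 13.53 and 13.09, above every earlier array, and both adult arrays gave 14.67, above day 4 again. The ranks followed, from 403 to 1662 at days 0 and 1 to 76 and 138 at day 4 and 12 and 9 in adult islets. Day 4 exceeded day 1 by 2.65 ± 0.31 (6.26-fold, adjusted p = 0.00754) and day 0 by 2.04 ± 0.30 (4.10-fold, adjusted p = 0.00256). Without day 4 replicate 1, the brighter of the 2 arrays, these differences were 2.42 (adjusted p = 0.124, range over the alternatives 1.25e-05 to 0.124) and 1.82 (adjusted p = 0.0563, range 9.36e-05 to 0.0563). Day 1 minus day 0 was -0.61 ± 0.26 (adjusted p = 0.283).

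Adult islets had 1.36 ± 0.34 log2 units more Ppy signal than day 4 progenitors (2.57-fold, adjusted p = 0.0251) and 3.399 ± 0.298 more than day 0 (10.6-fold, adjusted p = 1.49e-05). The adult values lay 0.14 and 0.16 under the brightest probe of their arrays, and whether they were compressed there was not tested. The step from day 4 to adult islets did not pass without adult islets replicate 1 (adjusted p = 0.119) or 2 (0.12), nor without day 4 replicate 1 (0.0661) or 2 (0.194), each of which leaves a group with 1 array. It was also lost with no filter on dim probes (0.0501) and measured from the top of the scale (0.0624), over a range of 3.55e-04 to 0.194 in all alternatives. Ppy ranked 9 on adult islets replicate 2, so it was among the 10 brightest probes that set the top there. The excess of adult islets over day 0 held in all 27 alternatives, with 3.19 to 3.67 log2 units.

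**Figure D3:**
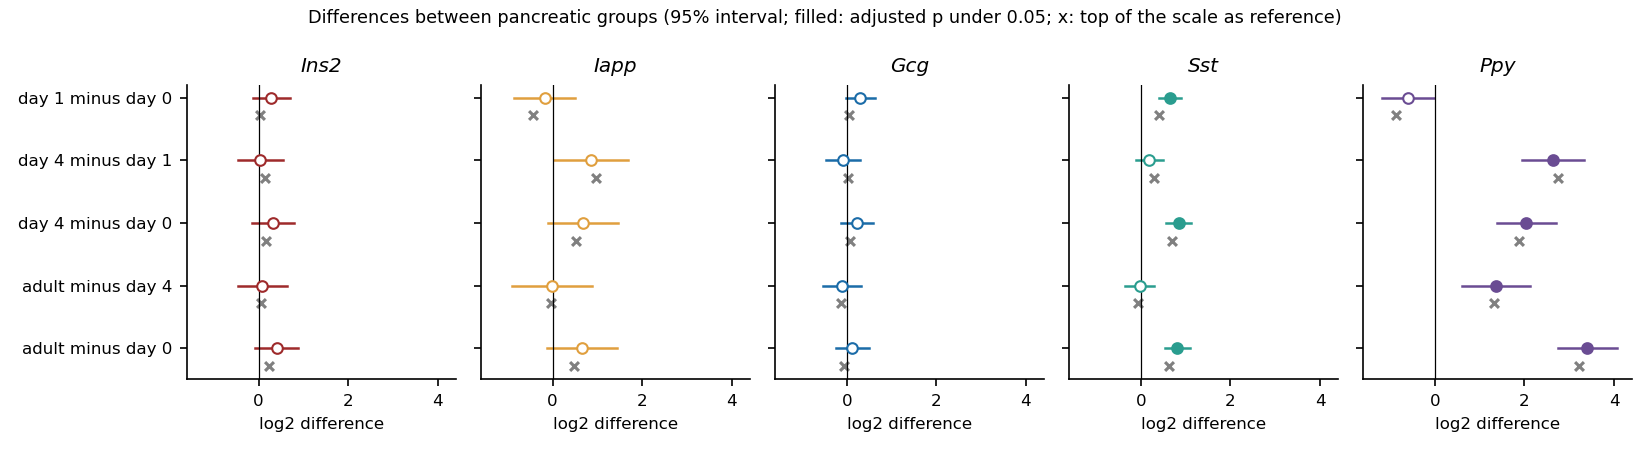
Log2 differences (horizontal axis) of each hormone probe between pancreatic groups, with 95% intervals from the limma fit; filled points have an adjusted p under 0.05 and grey crosses give the same difference measured from the mean of the 10 brightest probes. Sst was higher than at day 0 in every later group shown, Ppy rose at day 4 and again in adult islets, and all intervals of Ins2 and Gcg include 0.

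The genes of most similar pattern differed between the hormones, except that Ins2 and Iapp shared Sfxn1. Over the 11 pancreatic arrays, the probes whose log2 intensity followed Sst most closely were those of Mars1, the methionyl-tRNA synthetase (Pearson r = 0.98, Spearman rho = 0.891), Ddrgk1, of the protein-modifying UFM1 pathway (r = 0.968, rho = 0.927), and Flcn, folliculin (r = 0.959, rho = 0.936). Mars1 averaged 8.77, 10.04, 10.31 and 10.24 at days 0, 1 and 4 and in adult islets. The closest to Ppy were Cdkn2c, a cyclin-dependent kinase inhibitor (r = 0.972, rho = 0.927), the granule protein gene Resp18 (r = 0.97, rho = 0.836) and Ccpg1 (r = 0.968, rho = 0.845). Resp18 stood at 11.12, 11.003, 13.42 and 14.23 in the same 4 groups. For Ins2 the closest were Atp6ap2, an accessory protein of the vacuolar proton pump (r = 0.869, rho = 0.645), the mitochondrial serine carrier Sfxn1 (r = 0.851, rho = 0.636) and Extl2 (r = 0.835, rho = 0.664). Sfxn1 also stood among those of Iapp (r = 0.815, rho = 0.673), with Snrpn (r = 0.821, rho = 0.782) and Gstk1 (r = 0.805, rho = 0.755). The Gcg probe was followed by the kinase gene Rock1 (r = 0.91, rho = 0.745), Zmat3 (r = 0.891, rho = 0.873) and Mier1 (r = 0.881, rho = 0.636). Ranked by rho instead, the top 3 shared 0 genes with these for Ins2, Iapp and Ppy, and 1 for Gcg and for Sst. The genes named are the top 3 by r of 6422 or 6423 probes that passed the filters for each hormone, they share the arrays and the 4 groups, and the correlations are descriptions without a test.

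Among transcription factors that act in hormone cells, those that passed the test were lower at the later stage. Of 18 transcription factors of endocrine cells, 16 were measured, and 0 rose and 4 fell between day 0 and day 4 (5.22% and 5.81% of all 10382 genes measured). Between day 4 and adult islets 0 rose and 5 fell (7.29% and 6.61% of all genes), and the list's median was -0.75 against -0.04 for all genes. Neurog3, the progenitor factor, dropped by 4.68 log2 units (± 0.52, adjusted p = 5.38e-04) by day 4, and Pax4, a repressor that favours beta and delta over alpha cells, was at least 12.98-fold lower, at background (adjusted p = 1.15e-05). The LIM homeodomain factor Isl1 (-1.43 ± 0.24, adjusted p = 0.00242) and Irx2 (-1.37 ± 0.26, adjusted p = 0.00589), a factor of alpha cells, were lower in adult islets than at day 4. Hhex, which delta cells need, was lower too (-1.17 ± 0.28, adjusted p = 0.0188), beside the -0.03 of Sst. The Sst probe lay 0.28 to 0.29 under the brightest probe at day 4 and 0.27 in adult islets. Whether a change of Sst was hidden there was not tested. Pdx1, an activator of insulin genes, differed by -0.34 ± 0.22 at day 4 from day 0 and by -0.75 ± 0.26 in adult islets from day 4 (adjusted p = 0.0885), and the Mafa probe was above background on 5 of the 13 arrays.

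Among genes of hormone processing, folding and storage, most of those that passed the test were higher at the later stage. Of 13, 10 were measured. Between day 0 and day 4, 2 rose and 1 fell (5.22% and 5.81% of all genes), and between day 4 and adult islets 4 rose and 0 fell (7.29% and 6.61%). Ero1b, an oxidase that forms disulfide bonds of proinsulin (2.02 ± 0.38, adjusted p = 0.00897), and Scg5, the chaperone of a prohormone convertase (0.94 ± 0.24, adjusted p = 0.031), rose by day 4, and the granin Chgb fell (-1.05 ± 0.27, adjusted p = 0.0339). In adult islets, Pcsk1n, an inhibitor of prohormone convertase (1.60 ± 0.23, adjusted p = 0.00115), and the granule zinc transporter Slc30a8 (1.29 ± 0.27, adjusted p = 0.0089) were higher than at day 4. The probe of the convertase gene Pcsk1 was above background on 4 of the 13 arrays.

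Other peptide genes of the pancreas changed in both directions. Of 12, 11 were measured. From day 0 to day 4, 2 rose and 3 fell (5.22% and 5.81% of all genes), and from day 4 to adult islets 1 rose and 6 fell (7.29% and 6.61%). Gastrin, Gast (-2.92 ± 0.35, adjusted p = 8.69e-04), and cholecystokinin, Cck (-2.76 ± 0.24, adjusted p = 1.28e-04), fell by day 4 while neuropeptide Y, Npy (2.21 ± 0.34, adjusted p = 0.00305), and galanin, Gal (1.27 ± 0.14, adjusted p = 4.73e-04), rose. In adult islets ghrelin, Ghrl (-4.37 ± 0.23, adjusted p = 7.82e-07), and secretin, Sct (-4.84 ± 0.41, adjusted p = 2.53e-05), were lower than at day 4, and urocortin 3, Ucn3, a peptide of mature beta cells, was higher (4.64 ± 0.14, adjusted p = 1.28e-08). Ucn3 averaged 12.06 ± 0.27 in adult islets and 7.42 ± 0.06 at day 4 (SD, n = 2 each), while Ins2 and Iapp differed by 0.08 and -0.01 in the same comparison. Of 14 hormone receptor genes 7 were measured, and their counts were too small to set against the shares of all genes. By day 4, 0 rose and 1 fell (5.22% and 5.81% of all genes), Ramp2, a partner of calcitonin-family receptors (-1.21 ± 0.30, adjusted p = 0.029). In adult islets 1 was higher and 0 were lower than at day 4 (7.29% and 6.61%). The higher 1 was Ramp3, a subunit of amylin receptors (at least 3.49-fold above background, adjusted p = 1.56e-06). Beside this step the acinar, endothelial and immune markers were higher as well, at the levels given above. The mean of 2 erythroid markers was 7.10 to 7.24 at day 4 and 8.90 to 9.56 in adult islets. That of 3 proliferation markers was lower, 9.10 to 9.13 at day 4 and 7.07 to 7.37 in adult islets. The part of these marker lists was not tested. In these 2 comparisons 0 of the called genes of the 4 lists changed sign under the 4 other scalings.

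**Figure D4:**
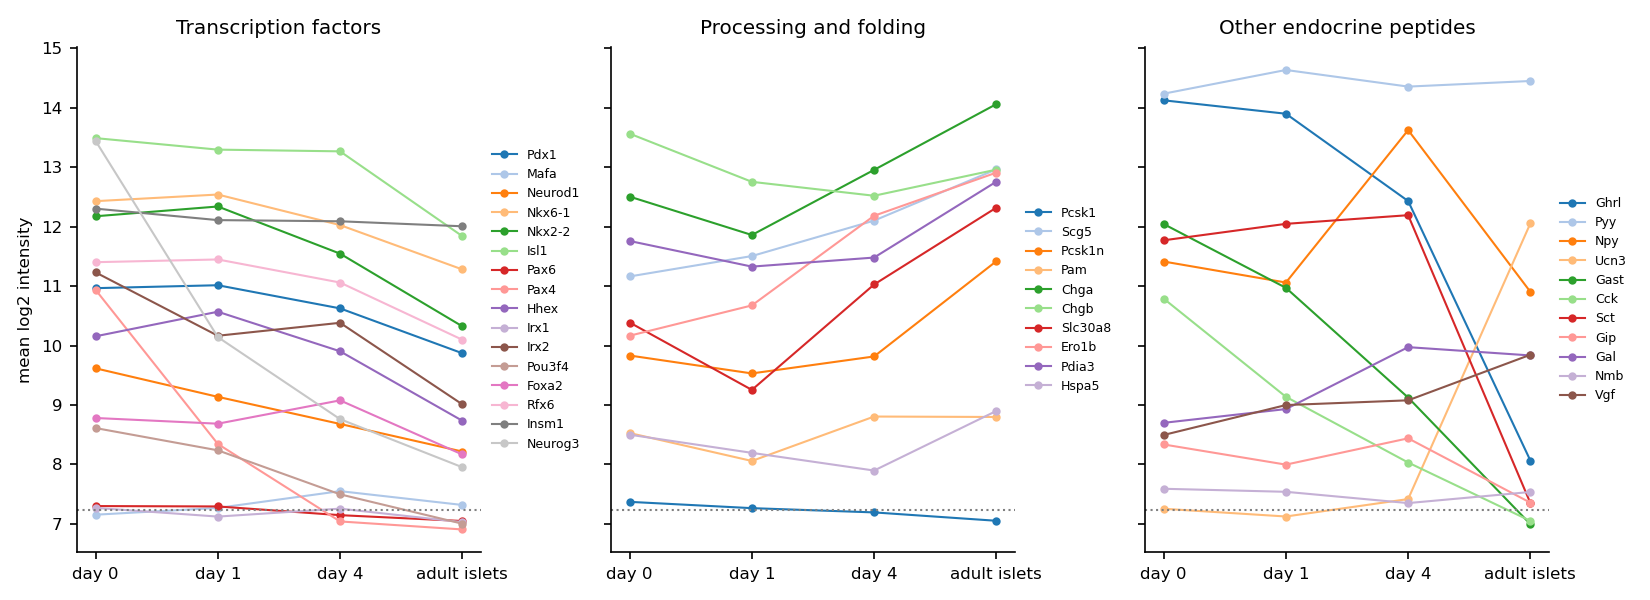
Mean log2 intensity (vertical axis) in the 4 pancreatic groups of the measured transcription factors, genes of hormone processing and folding, and other endocrine peptides; each line is a gene by its brightest probe and the dotted line is the background level of 7.24. Neurog3 falls from 13.44 at day 0 to 7.95 in adult islets, and Ucn3 is near background until its 12.06 in adult islets.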

How the data were processed

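Total RNA extracted with Trizol was labelled with the Illumina TotalPrep kit, per the labels' protocols. The authors deposited log2 intensities already normalized, with a method not given in the sources used here. Base 2 was inferred from their range, 6.73 to 15.197, and a variance-stabilising transform, which would compress differences of dim probes, cannot be told from the values. A table of signals before normalization (26 columns) was not used, as none of its column names matches a sample's labels. The detection calls it holds were therefore not used either.

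Of 25697 probes, 23978 name 1 gene and 1719 none. The background level, 7.24, lies 5 SD (of the values under the mode) above the mode of all values, 6.98. Probes above it on at least 2 arrays (14946, with 10382 genes) were fitted with limma 3.58.1 in R 4.3.3 (lmFit, eBayes, 5 group means, all 13 arrays, 8 residual and 2.79 prior degrees of freedom). All 10 pairs of groups were compared, with a call at 0.05 after Benjamini-Hochberg adjustment over all probes. The number of arrays limits the precision. Every probe was fitted because each hormone has its own probe, and gene lists use the brightest probe of a gene.

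The members, lists and tests were chosen with earlier results of these data known. The text names the 5 members, for each the 3 genes of highest Pearson correlation (group means at least 0.5 apart, no clone names), and from each list up to 2 called rises and 2 falls in 2 comparisons, with fixed genes besides, some of which are not reported here. The fit was tested on simulated data. Whether equal replicate numbers paired the arrays could not be settled.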

Additional observations from a re-analysis of the deposited data

How the results depend on the processing

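Each difference was recomputed in up to 27 alternatives, 13 of them leaving out 1 array. Of 1330 recomputed hormone differences, 1285 kept direction and side of the threshold. That total counts uncalled differences that stayed uncalled, and it includes the large differences from embryonic stem cells, all of which kept both. Calls lost were Ppy in adult islets over day 4 with no filter (1.36) and with the top of the scale as reference (1.33), Sst at day 1 over day 0 with background subtraction (0.66) and with the top as reference (0.40), and Sst at day 4 over day 0 with the top as reference (0.69). Calls gained for Iapp were adult islets over day 1 with array weights (0.87) and the top as reference (0.92), and day 4 over day 1 with array weights (0.88). After cyclic loess Ins2 in adult islets over day 0 (0.68) and Sst in adult islets over day 1 (0.43) passed. Small differences changed sign: after quantile normalization Gcg in adult islets over day 0 (-0.11), Gcg at day 4 over day 1 (0.0088), Iapp in adult islets over day 4 (0.044) and Sst in adult islets over day 1 (-0.042), and with the top as reference the same Gcg differences (-0.057 and 0.032). After cyclic loess Gcg in adult islets over day 1 (0.099) and over day 4 (0.16), Iapp (0.15) and Sst (0.23) in adult islets over day 4 turned, and with array weights Ins2 over day 1 in adult islets (-0.060) and at day 4 (-0.14). The causes were not tested.

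Whether arrays of equal replicate number deviated together could not be settled. Of 21 same-numbered pairs 2 correlated above 0.1, and 4 of 13 arrays correlated best with an array of their own number. In a group of 2 arrays the deviations mirror each other, so most of these correlations come in pairs of opposite sign. Between day 0 and day 1, where they do not, replicates 1, 2 and 3 gave 0.387, 0.0351 and -0.342. With the replicate number as a block Iapp passed in adult islets over day 0 (1.06) and day 1 (0.92) and at day 4 over day 0 (1.08), Ins2 in adult islets over day 0 (0.68), while Gcg at day 4 over day 1 (0.022) and Iapp at day 1 over day 0 (0.14) changed sign. Replicate number 4 occurred at day 0 alone, so the block also took that array out of the differences. Leaving that array out without a block gave the same 0.14 for Iapp. The block moved the count of called probes from 519 to 273 at day 1 over day 0, from 1532 to 724 at day 4 over day 0 and from 209 to 19 at day 4 over day 1.

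Leaving out 1 array, Gcg at day 4 over day 1 ranged from -0.16 to 0.011, and Ins2 from -0.15 to 0.16 there and from -0.066 to 0.25 in adult islets over day 1. Iapp ranged from -0.39 to 0.14 at day 1 over day 0, from 0.46 to 0.99 at day 4 over day 0, from 0.45 to 0.98, 0.68 to 1.01 and -0.062 to 0.032 in adult islets over day 0, day 1 and day 4. Iapp in adult islets over day 1 passed without day 0 replicate 4 (adjusted p = 0.0203). Ppy ranged from 1.14 to 1.58 in adult islets over day 4, from 1.82 to 2.30 at day 4 over day 0 and from 2.42 to 2.87 over day 1, and Sst from 0.76 to 0.91 at day 4 over day 0. The called probes ranged from 233 to 623 (day 1 over day 0), 228 to 1836 (day 4 over day 0), 8 to 441 (day 4 over day 1), and 822 to 2183, 2499 to 5182 and 1764 to 3946 (adult islets over day 4, day 0 and day 1, in all 1872, 4805 and 3613). With array weights they were 1537, 4068, 4650, 5328 and 6866 (day 1 over day 0, day 4 over day 0 and day 1, adult islets over day 4 and day 1). With the top as reference, they were 994, 100, 1015 and 2141 in the last 4 of these. Without day 0 replicate 3 and day 1 replicate 2, the arrays of lowest and highest acinar level in their groups, left out together after seeing the data, they were 320 (day 1 over day 0) and 139 (day 4 over day 1). With the 10 brightest probes as the top, the median distance from it was 0.054 in place of 0.22 for Gcg and 0.062 in place of 0.19 for Ins2. On several arrays the Gcg and Ins2 probes were themselves among those 10.

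The share of calls that were higher moved with the scaling. With the top as reference it went from 45.5% to 11.3% (day 1 over day 0), 50.1% to 25.8% and 69.4% to 84% (day 4 over day 0 and day 1), 46.7% to 29.7% and 47.7% to 60.8% (adult islets over day 0 and day 1), and from 49.9%, 50.3%, 48.3% and 48.1% to 31.5%, 16.4%, 22.6% and 23.3% (day 0, day 1, day 4 and adult islets over stem cells). After cyclic loess it went from 54.6% to 65.9% (adult islets over day 4) and from 47.7% to 63.5% (over day 1).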
